A study of Mus musculus with 24 samples.

Results

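The genes described here are those of the MHC class I antigen presentation pathway in cultured mouse macrophages, which were followed by RNA sequencing (RNA-seq) before and after a bacterial stimulus. The 10 members were the rows whose gene symbol was H2-K1, H2-D1, B2m, Tap1, Tap2, Tapbp, Psmb8, Psmb9, Psmb10 or Nlrc5, out of 24273 genes in the table, and all 10 passed the filter on low values that left 13901 genes for testing. The cells were bone marrow-derived macrophages (BMDMs), obtained by letting marrow cells of C57BL/6 mice mature in a dish, and came from 2 genotypes. All of the mice carried LysM-Cre, a Cre recombinase placed in the lysozyme locus Lyz2 and active in myeloid cells. The controls are named LysM-Cre here; the design text gives them no other allele, whereas the text of the study adds 1 floxed copy of Fos. The other genotype was LysM-Cre with both copies of Fos floxed (Fos fl/fl), named FosKO. Cells were taken untreated (0 h) or after 0.5, 1 or 2 h with lipopolysaccharide (LPS), a ligand of the receptor TLR4, at 100 ng/ml, with 3 libraries in each of the 8 groups. The ages of the mice were not given in the sources used here. The libraries of a group are called biological replicates, but nothing says whether they came from separate mice or separate cultures, so the p-values measure the spread between these libraries. Values are normalised log2 values of the authors, so a difference of 1 is a doubling; they hold no read counts, and the sources used here give a typical yield of reads but not the depth of single libraries.

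MHC class I molecules display short peptides from inside a cell at its surface, where CD8 T cells read them. Proteasomes cut proteins into peptides, the transporter TAP carries the peptides into the endoplasmic reticulum, and a loading complex places them on a heavy chain bound to beta-2 microglobulin. In macrophages interferons and microbial stimuli are known to raise many of these genes, and FOS is a subunit of the AP-1 transcription factors, which act early in the response to LPS.

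Facts of the libraries bear on every result. Fos itself, the gene that the FosKO genotype is meant to lack, differed by 1.49, -0.77, 1.64 and 3.29 at 0, 0.5, 1 and 2 h (FosKO-labelled minus LysM-Cre), so it was lower at 0.5 h alone. In LysM-Cre its means were 11.11, 13.52, 11.15 and 9.52 in that order, a rise and a fall. In the FosKO-labelled libraries they stayed at 12.60, 12.75, 12.78 and 12.80. One value per gene cannot separate the deleted part from the rest, so the genotypes rest on the labels and the groups are called FosKO-labelled libraries. The study reports that loss of FOS raised Ifnb1 after LPS, by RNA-seq and by quantitative PCR. It reports more of the encoded interferon protein in culture medium and in mouse serum as well. By RNA-seq it reports higher Ifna genes after LPS and higher levels of multiple interferon-stimulated genes at 2 h. A subset of the latter was already higher without LPS. It also reports lower Fra1, Fra2 and Il10 by RNA-seq. No values of Ifnb1, the Ifna genes, Fra1, Fra2 or Il10 are given here. Lyz2 lay between 10.87 and 11.57 in LysM-Cre and between 16.08 and 16.33 in the FosKO-labelled libraries. The groups thus differ in the RNA of the locus that holds Cre as well as in the Fos label. The design cannot tell these apart in any comparison between the genotypes. The 18S ribosomal RNA row was low (16.65 to 17.00) in 5 libraries at 0.5 and 1 h, of both genotypes, and high (18.57 to 19.39) in the other 19. The macrophage markers Adgre1, Csf1r, Cd68 and Itgam were between 14.16 and 15.38 in every library, whereas Cd3e of T cells, Ncr1 of NK cells and Ly6g of neutrophils stayed below 0. Of the 8 macrophage markers 3 were called higher and 4 lower in the FosKO-labelled libraries at 0 h, beside 19.5% and 15.9% of all tested genes. Over all times Mertk averaged 10.8 in these and 9.68 in LysM-Cre, and Fcgr1 13.2 and 12.48. Cd68 averaged 15.285 and 15.098, and Tlr4 11.425 and 11.243. The means went the other way for Itgam (14.27 and 14.44), Adgre1 (14.82 and 14.91), Csf1r (15.10 and 15.17) and Cd14 (14.64 and 14.67). Summed over each list on the linear scale, the 8 macrophage markers gave 17.16 to 17.43 in LysM-Cre and 17.13 to 17.53 in the FosKO-labelled libraries. Of the 8 dendritic cell markers 5 passed the filter and the sums were 11.49 to 11.74 and 11.20 to 11.62, mostly from Itgax. Of the 7 T and NK cell markers only Cd4 passed, and the sums were 7.63 to 7.93 and 8.03 to 8.46. The 6 neutrophil and progenitor markers in the table (2 passed) gave 5.71 to 6.71 and 5.18 to 5.85, the 5 B cell markers (1 passed) 5.49 to 5.75 and 5.12 to 5.56, and the 4 fibroblast and stromal markers (2 passed) 3.85 to 4.82 and 3.78 to 4.43. The erythroid marker Alas2 stayed below 0. What these shifts contribute to the results was not tested, and in bulk RNA fewer cells of a type and less RNA per cell cannot be told apart.

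The first question of the design was how the genotypes differ at each time. All 10 class I genes were higher in the FosKO-labelled libraries than in LysM-Cre at 0, 0.5, 1 and 2 h (limma, adjusted p below 0.05 for each). Among all tested genes 19.5%, 21.2%, 18% and 24.4% were called higher in that order of time, and 15.9%, 19.7%, 15.9% and 20.3% were called lower. The median difference of the 10 genes was 0.55, 0.74, 0.55 and 0.47 in turn, while the median of all tested genes was 0.00 at each time. The smallest difference was that of H2-D1 at 0 h (0.24) and the largest that of Tap1 at 0.5 h (1.03). For each of the 10 genes at each of the 4 times, the lowest FosKO-labelled library lay above the highest LysM-Cre library. A separation of this kind in the same direction was seen in 24%, 25.9%, 23.7% and 28.9% of the tested genes. With the 19 high 18S libraries alone all 10 were also called at 0.5 h. They were called at 0 and 2 h too, but no library of these times was low, so the same libraries were compared and this is no check there. At 1 h that fit holds a single LysM-Cre library, which is assumed to vary like the other groups, so its 10 calls there are no check of the spread in that group. Within the high 18S set the differences ran from 0.38 (H2-D1) to 1.1 (Tap1) at 0.5 h, and within the low set from 0.31 to 0.87 for the same genes. At 1 h, with 1 LysM-Cre library against 2 in the high set and 2 against 1 in the low set, they ran from 0.33 to 1.04 and from 0.19 to 0.69. Under quantile normalisation 9, 10, 9 and 8 of the 10 were called higher at the 4 times in turn, beside 16.4%, 19%, 15% and 18.7% of all tested genes under that scaling. That scaling also moved the share of higher genes among all calls, which was 55.1%, 51.9%, 53.1% and 54.6% in order of time and became 45.3%, 45.6%, 42.8% and 43%.

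**Figure D1:**
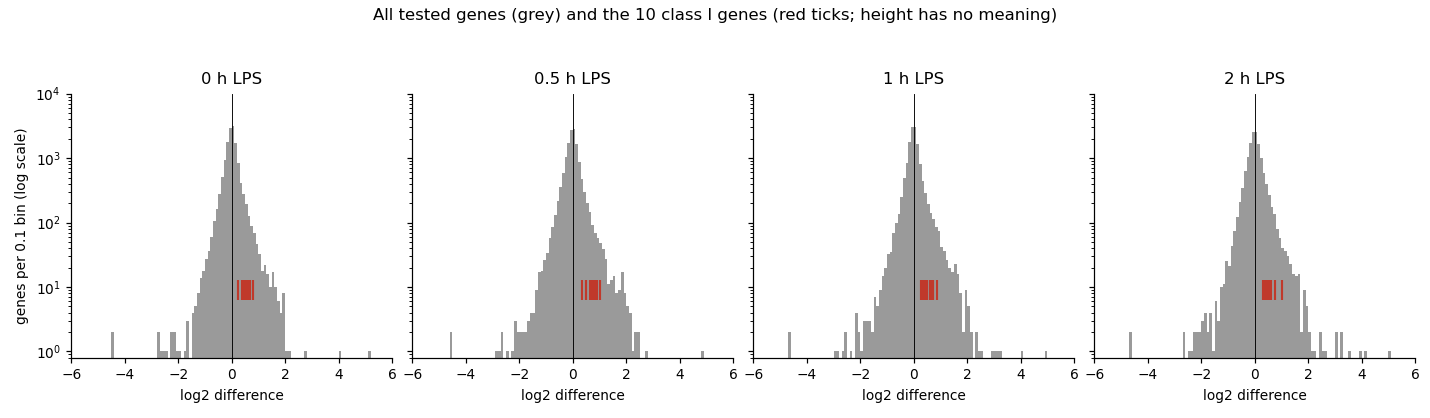
Distribution of the difference between FosKO-labelled libraries and LysM-Cre over all 13901 tested genes (grey bars, number of genes per bin of 0.1 on a log axis) at each time of LPS, with the 10 class I genes as red ticks. The ticks lie to the right of 0 in each panel, between 0.24 and 1.03, inside the right flank of the distribution.

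**Figure D2:**
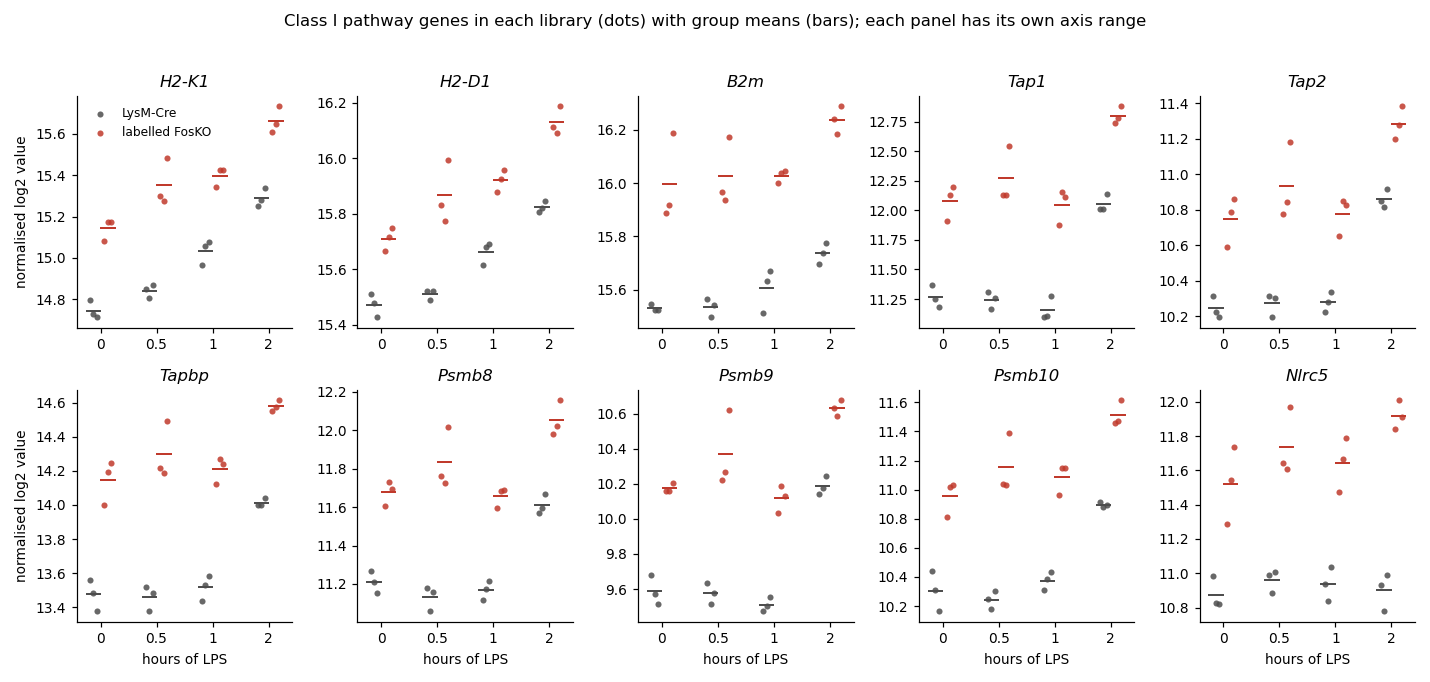
Normalised log2 value of each class I gene (y axis, own range in each panel) in each of the 24 libraries against hours of LPS; dots are libraries (grey, LysM-Cre; red, labelled FosKO) and bars are means of 3 libraries. At every time the red dots lie above the grey ones, and most genes are highest at 2 h in both genotypes.

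The class I heavy chains H2-K1 and H2-D1 and their partner B2m (beta-2 microglobulin) form the molecule that reaches the surface. H2-K1 and H2-D1 lie on the MHC region of chromosome 17 and B2m on chromosome 2. On the build GRCm38 (mm10) H2-K1 (ENSMUSG00000061232) spans chr17:33996017-34000347 on the minus strand, H2-D1 (ENSMUSG00000073411) chr17:35262730-35267499 on the plus strand, and B2m (ENSMUSG00000060802) chr2:122147686-122153083 on the plus strand. Reads of H2-K1 and H2-D1 can also match near-identical class I genes, so their values are uncertain to that extent. The sequences before their start sites are shown because the data follow these genes through an LPS response and because the letters they share were searched for. Each window runs from 250 bases before to 50 bases after the start in RefSeq (GRCm38.p6), 5′ to 3′ along the gene. Capitals mark GGGATTCCCC and TTTCACTT in H2-K1 and H2-D1, and GAAACTGAAA and GGGAAAGTCC in B2m; the matches are described after the sequences.
H2-K1, chr17:34000298-34000597, minus strand: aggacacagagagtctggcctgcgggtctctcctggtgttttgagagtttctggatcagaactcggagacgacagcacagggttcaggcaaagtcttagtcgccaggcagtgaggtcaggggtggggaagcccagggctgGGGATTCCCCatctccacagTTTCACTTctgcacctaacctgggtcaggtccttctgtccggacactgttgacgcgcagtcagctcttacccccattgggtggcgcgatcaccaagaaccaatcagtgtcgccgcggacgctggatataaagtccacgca
H2-D1, chr17:35262844-35263143, plus strand: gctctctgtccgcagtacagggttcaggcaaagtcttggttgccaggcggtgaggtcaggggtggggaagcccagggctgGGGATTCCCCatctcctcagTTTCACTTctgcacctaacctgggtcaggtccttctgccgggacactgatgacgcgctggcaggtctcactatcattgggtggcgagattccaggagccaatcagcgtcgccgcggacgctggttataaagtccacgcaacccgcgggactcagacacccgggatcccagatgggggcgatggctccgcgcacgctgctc
B2m, chr2:122147437-122147736, plus strand: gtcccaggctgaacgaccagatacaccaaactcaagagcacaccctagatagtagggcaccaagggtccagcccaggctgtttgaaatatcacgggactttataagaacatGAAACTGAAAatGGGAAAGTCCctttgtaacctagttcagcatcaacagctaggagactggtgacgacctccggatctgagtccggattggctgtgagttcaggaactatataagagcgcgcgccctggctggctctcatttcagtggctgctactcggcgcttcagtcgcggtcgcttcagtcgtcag

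Motifs of 4 factors or elements were searched on both strands in 32851 promoter windows of this length. The core of an interferon-stimulated response element (GAAA, 2 bases of any kind, GAAA) was in 3.44% of all windows and in 1 of the 8 members that had one, B2m, at -139 to -130 from the start. The NF-kB letters (GGG, 5 bases of any kind, CC, which can overlap their match on the other strand) were in 50.8% of windows and in 5 of the 8 (B2m, H2-D1, H2-K1, Psmb9 and Tap1). The AP-1 letters TGANTCA were in 7.81% of windows and in 0 of the 8, and the GAS letters TTCNNNGAA in 8.3% and in 1, Psmb8, at -97 to -89. After the windows had been read, the rarest of the 3 NF-kB matches that H2-K1 and H2-D1 share, GGGATTCCCC, was counted and found in 28 windows (0.0852%), against 35 and 58 for the others. It stood at -110 to -101 in H2-K1 and at -170 to -161 in H2-D1. The half-site AANNGAAA, also added then and part of the longer interferon core, was in 23.9% of windows and in B2m, H2-D1 and H2-K1, where the minus strand match reads TTTCACTT. H2-K1 had a further RefSeq start, whose window is shifted and holds the same letters. A match of letters is a description and not a site. The windows of Tap1 (plus strand, chr17:34187306-34187605) and Psmb9 (minus strand, chr17:34187281-34187580) overlap, so these genes share 1 stretch of sequence between them. Tap2 and Nlrc5 had no entry.

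H2-K1 was 14.79, 14.73 and 14.71 in the LysM-Cre libraries at 0 h and 15.08, 15.17 and 15.18 in those with the FosKO label. At 0.5 h it was 14.85, 14.81 and 14.87 against 15.30, 15.28 and 15.48, and at 1 h 14.96, 15.06 and 15.08 against 15.34, 15.42 and 15.43. At 2 h it was 15.25, 15.28 and 15.34 against 15.61, 15.64 and 15.73. The groups did not overlap at any of these times, and both sets of libraries rose by 2 h. The difference between the genotypes was 0.40 at 0 h (95% interval 0.29 to 0.50, 1.32-fold), 0.51 at 0.5 h, 0.36 at 1 h and 0.37 at 2 h.

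H2-D1 was 15.51, 15.48 and 15.43 in LysM-Cre at 0 h and 15.67, 15.71 and 15.75 in the FosKO-labelled libraries, the narrowest separation among the 10 genes at that time. At 0.5 h it was 15.52, 15.49 and 15.52 against 15.77 to 15.83 in replicates 1 and 2, with replicate 3 above them, at 1 h 15.61, 15.68 and 15.69 against 15.88, 15.92 and 15.96, and at 2 h 15.80, 15.82 and 15.84 against 16.11, 16.09 and 16.19. The difference was 0.24 at 0 h (0.14 to 0.33), 0.36 at 0.5 h, 0.26 at 1 h and 0.31 at 2 h (0.21 to 0.40; limma, adjusted p 1.28e-05). This gene depended on the scaling: under quantile normalisation the difference was 0.04 at 0 h (adjusted p 0.516), 0.09 at 1 h (0.128) and -0.10 at 2 h (0.0869).

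B2m was 15.55, 15.52 and 15.52 in LysM-Cre at 0 h and 15.89, 15.92 and 16.19 in the FosKO-labelled libraries, where replicate 3 stood above the others. At 0.5 h the values were 15.57, 15.50 and 15.54 against 15.97, 15.94 and 16.17, at 1 h 15.51, 15.63 and 15.67 against a mean of 16.03 ± 0.0252 (SD, n = 3), and at 2 h 15.70, 15.74 and 15.78 against 16.24, 16.18 and 16.29. The lowest FosKO-labelled library at any time (15.89) lay above the highest LysM-Cre library at any time (15.78). The difference was 0.47 at 0 h (0.33 to 0.60, 1.38-fold), 0.49 at 0.5 h, 0.42 at 1 h and 0.50 at 2 h. Under quantile normalisation the call at 2 h was lost (0.12, adjusted p 0.131).

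Tap1 and Tap2 encode the partner chains of the peptide transporter, and Tapbp encodes tapasin, which holds the transporter and the empty heavy chain together while a peptide is loaded. All of them lie in the MHC region of chromosome 17: Tap1 (ENSMUSG00000037321) at chr17:34187553-34197225, Tap2 (ENSMUSG00000024339) at chr17:34203527-34216321 and Tapbp (ENSMUSG00000024308) at chr17:33915899-33929292, on the plus strand. Tapbp overlaps Zbtb22 on the same strand, so reads there may be shared in part. Tap1 overlaps Psmb9, and Tap2 overlaps Gm20496 and Gm15821, on opposite strands; the reads were strand-specific, but the sources used here do not say whether strand was used in the counting.

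Tap1 showed the largest difference of the 10 genes at 0, 0.5 and 1 h. It was 11.37, 11.25 and 11.18 in LysM-Cre at 0 h and 11.91, 12.13 and 12.20 in the FosKO-labelled libraries. At 0.5 h it was 11.31, 11.16 and 11.26 against 12.13, 12.13 and 12.54, at 1 h 11.10, 11.11 and 11.28 against 11.88, 12.16 and 12.11, and at 2 h 12.01, 12.01 and 12.14 against 12.74, 12.78 and 12.88. The genotypes were apart at each time, and the libraries of 2 h stood above the earlier ones in both. The difference was 0.81 at 0 h (0.61 to 1.01, 1.75-fold), 1.03 at 0.5 h (0.82 to 1.23, 2.04-fold), 0.89 at 1 h and 0.75 at 2 h (limma, adjusted p 2.65e-06 at 2 h).

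Tap2 was lower in level and differed less than its partner. Its values were 10.31, 10.23 and 10.20 in LysM-Cre at 0 h and 10.59, 10.79 and 10.86 in the FosKO-labelled libraries, and the differences were 0.50, 0.66, 0.49 and 0.42 at 0, 0.5, 1 and 2 h. Tapbp was 13.56, 13.48 and 13.38 against 14.00, 14.19 and 14.25 at 0 h, a difference of 0.67 (0.52 to 0.82), and differed by 0.84, 0.70 and 0.57 at the later times. At 2 h Tap2 was 10.85, 10.82 and 10.92 against 11.20, 11.27 and 11.38 and Tapbp 14.00, 14.00 and 14.04 against 14.55, 14.57 and 14.61, so both were higher in each library than at 0 h and the genotypes stayed apart. Within each genotype the spread of these libraries was between 0.02 and 0.22 (SD, n = 3), below the differences between the genotypes.

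Psmb8, Psmb9 and Psmb10 encode the inducible catalytic subunits of the proteasome, which take the places of the standard subunits Psmb5, Psmb6 and Psmb7 and so form the immunoproteasome. Psmb8 (ENSMUSG00000024338, chr17:34197721-34201454, plus strand) and Psmb9 (ENSMUSG00000096727, chr17:34181987-34187764, minus strand) flank Tap1, while Psmb10 (ENSMUSG00000031897, chr8:105935735-105938444, minus strand) lies elsewhere. At 0 h Psmb8 was 11.27, 11.21 and 11.15 in LysM-Cre and 11.61, 11.73 and 11.70 in the FosKO-labelled libraries. Psmb9 was 9.68, 9.57 and 9.51 against 10.16, 10.16 and 10.20, and Psmb10 was 10.44, 10.31 and 10.16 against 10.81, 11.02 and 11.03. All of these subunits were thus higher in each FosKO-labelled library, the largest difference at each time being that of Psmb10. From 0 to 2 h in turn, Psmb10 differed by 0.65, 0.91, 0.71 and 0.62. Psmb9 differed by 0.59, 0.79, 0.61 and 0.44 and Psmb8 by 0.47, 0.70, 0.49 and 0.44. After 2 h of LPS the level of Psmb9, for one, was 10.14, 10.18 and 10.25 against 10.63, 10.59 and 10.68, above its 0 h libraries in both genotypes.

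The standard subunits did not move as a group. Psmb6 was higher in FosKO-labelled libraries (0.41, 0.39, 0.35 and 0.31 in order of time), and each of these passed the test. Psmb5 was called lower at 0 h (-0.12), but not without replicate 3 of the FosKO-labelled libraries (-0.06, adjusted p 0.309), without LysM-Cre replicate 1 (-0.10, 0.141) or 2 (-0.11, 0.0927), with the 2 groups alone (0.161), without a filter (0.0688), with the high 18S libraries alone (0.0663) or without a variance trend (0.0542). It differed by 0.02, -0.04 and -0.06 later, none of which passed, though under quantile normalisation Psmb5 was called lower at 2 h (-0.12, adjusted p 0.0441). Psmb7 differed by 0.02, 0.07 and 0.03 at the first 3 times, which did not pass, and was called higher at 2 h (0.08), where quantile normalisation turned the sign (-0.02, adjusted p 0.709). That call was also lost without FosKO-labelled replicate 3 (0.06, 0.129), without LysM-Cre replicate 1 (0.07, 0.0986) or 2 (0.08, 0.0560) with the 2 groups alone (0.0530) and under scaling by trimmed means of log ratios (TMM; 0.06, 0.0973). At 0.5 h Psmb7 (adjusted p 0.0536) was called with a filter at 20 (0.0489), under TMM (0.0455), with the replicate block (0.0486) and without LysM-Cre replicate 3 (0.09, 0.0357).

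Taking the inducible minus the standard subunit within a library removes any factor common to both. Psmb8 minus Psmb5 was 0.98 ± 0.0162 (SD, n = 3) in LysM-Cre at 0 h and 1.57 ± 0.13 in the FosKO-labelled libraries, a shift of 0.59, and the shift was 0.69, 0.53 and 0.50 at 0.5, 1 and 2 h. Psmb10 minus Psmb7 moved from -0.45 ± 0.111 to 0.18 ± 0.138 at 0 h, a shift of 0.63, followed by 0.84, 0.68 and 0.53. Psmb9 minus Psmb6 moved from -1.66 ± 0.0440 to -1.49 ± 0.0124, a shift of 0.17, followed by 0.40, 0.26 and 0.14. The genotypes did not overlap in any of these 12 comparisons. Of all tested genes taken singly, 23.7% to 28.9% were separated in this direction at a given time. No such share was computed for other pairs of genes. Each gave p = 0.1 in a two-sided exact permutation test, which is the smallest value that 3 against 3 libraries allow and which stayed at 0.1 after adjustment over the 12 tests, so none could pass the threshold. A difference of log2 values between genes is not a ratio of molecules, because the values were not corrected for length.

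**Figure D3:**
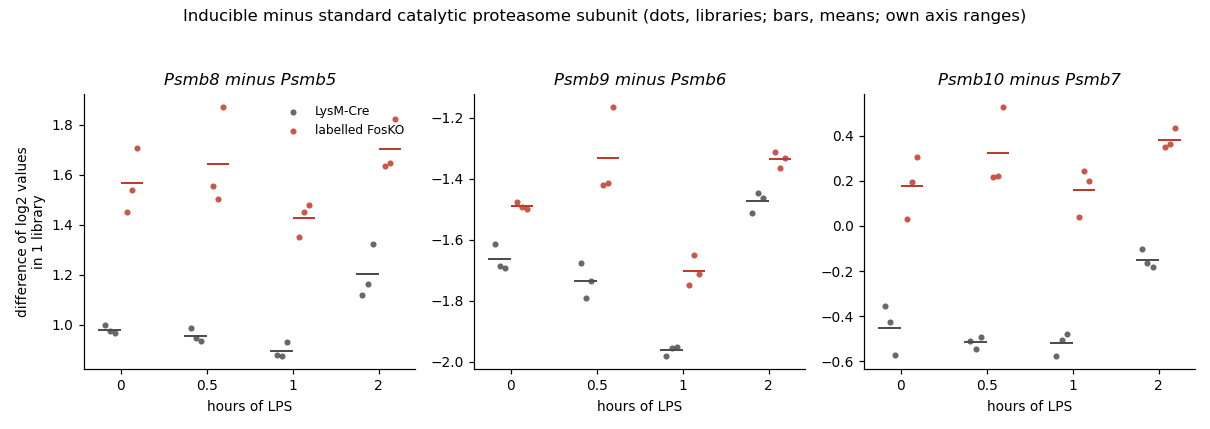
Inducible minus standard catalytic proteasome subunit as a difference of log2 values in each library (y axis, own range in each panel) against hours of LPS; dots are libraries (grey, LysM-Cre; red, labelled FosKO) and bars are means of 3. The red dots lie above the grey ones in all panels, with the narrowest shifts for Psmb9 minus Psmb6 (0.14 to 0.40).

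Nlrc5 (ENSMUSG00000074151, chr8:94434356-94527272, plus strand) encodes a transactivator that drives transcription of class I genes. It was 10.98, 10.82 and 10.82 in LysM-Cre at 0 h and 11.28, 11.54 and 11.74 in the FosKO-labelled libraries. At 0.5 h the values were 10.99, 10.88 and 11.01 against 11.64, 11.61 and 11.97, at 1 h 10.94, 10.84 and 11.04 against 11.48, 11.66 and 11.79, and at 2 h 10.93, 10.78 and 10.99 against 11.84, 12.01 and 11.91. All LysM-Cre libraries at all times (10.78 to 11.04) lay below all FosKO-labelled libraries (11.28 to 12.01). Among the 10 genes this held for Nlrc5 and B2m, and it held for 3.68% of all tested genes. The difference was 0.65 at 0 h (0.43 to 0.86), 0.78 at 0.5 h, 0.71 at 1 h and 1.02 at 2 h (0.80 to 1.24, 2.03-fold; limma, adjusted p 1.27e-07), and at 2 h it was the largest of the 10.

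**Figure D4:**
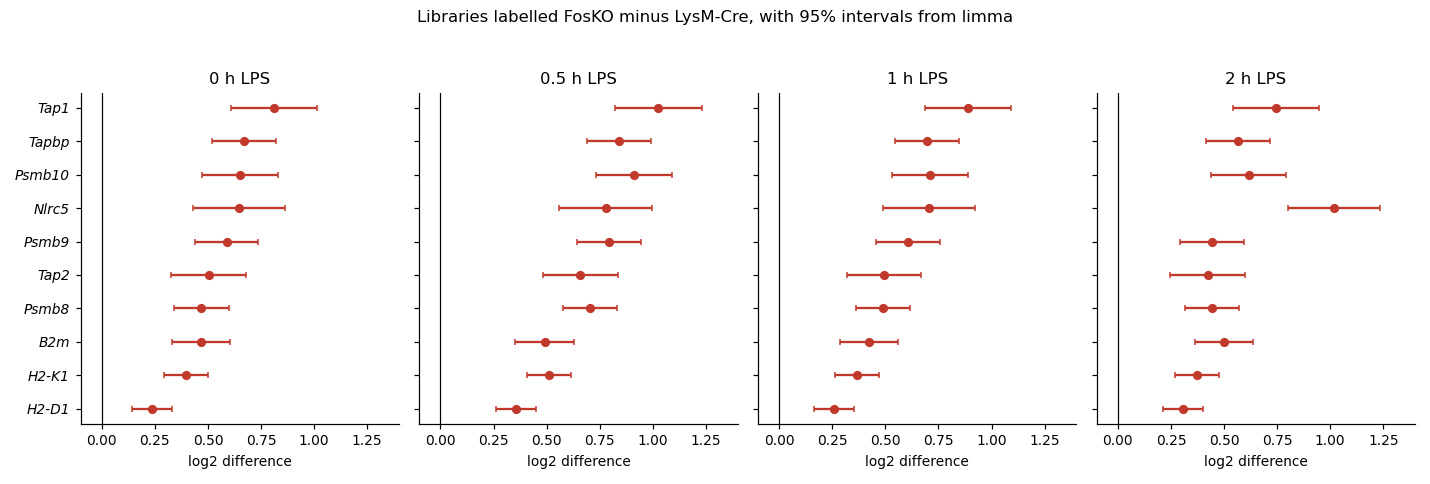
Difference between FosKO-labelled libraries and LysM-Cre for each class I gene (x axis, log2; points, estimates; bars, 95% intervals from limma over all 24 libraries) at each time of LPS. No interval reaches 0, and the order from H2-D1 to Tap1 at 0 h gives way to Nlrc5 at the top at 2 h.

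The second question was how the pathway responds to LPS within each genotype. These comparisons share their 0 h libraries, so the values are set side by side only. In LysM-Cre at 0.5 h, where 5.09% of the tested genes were called higher, 0 of the 10 genes were called by limma and 0 had an unadjusted p under 0.05 (17.5% of all tested genes). The estimates ran from -0.08 (Psmb8) to 0.10 (H2-K1), and quantile normalisation moved the share of higher genes among all calls from 70.3% to 48.3% (75.2% to 50.5% in the other genotype). In the FosKO-labelled libraries at 0.5 h (4.45% of genes higher), H2-K1 (0.21, adjusted p 0.0119) and H2-D1 (0.16, adjusted p 0.0465) were called, and 7 of the 10 had an unadjusted p under 0.05 (19% of all tested genes). Replicate 3 was the highest of the 3 FosKO-labelled libraries at 0.5 h for all 10 genes. Without it H2-K1 was 0.14 (adjusted p 0.0941) and H2-D1 0.09 (0.276), and neither was called. Without replicate 1 of the 0 h FosKO-labelled libraries they were 0.18 (0.0702) and 0.13 (0.168), and with a fit of the 2 groups alone neither was called. H2-D1 was also not called without replicate 2 at 0 h (0.16, adjusted p 0.0927) or replicate 1 at 0.5 h (0.17, 0.0520), and Psmb9 was called without the latter (0.27, 0.0324). Under quantile normalisation H2-D1 was 0.06 (adjusted p 0.487), and its call was also lost without a filter (0.0531), with the 18S set as a term (0.0519), with the high 18S libraries alone (0.0879) and without a variance trend (0.0513). With the replicate number as a block within genotype Tap2 was called as well (0.18, adjusted p 0.0375).

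At 1 h the heavy chains alone were called. H2-K1 rose by 0.29 (0.18 to 0.39) and H2-D1 by 0.19 (0.09 to 0.28) in LysM-Cre, where 19.2% of the tested genes were called higher, and by 0.25 and 0.21 in the FosKO-labelled libraries (17.6%). The other 8 genes lay between -0.11 (Tap1) and 0.07 (B2m) in LysM-Cre and between -0.06 (Psmb9) and 0.13 (Psmb10) in the FosKO-labelled libraries. With the high 18S libraries alone H2-D1 in LysM-Cre was 0.14 (adjusted p 0.178), where 1 library stands for the group at 1 h and the spread comes from the other groups. Under quantile normalisation no member was called higher at 1 h in either genotype: H2-D1 was -0.11 in LysM-Cre and -0.06 in the FosKO-labelled libraries, H2-K1 was -0.01 and 0.03, while B2m, Tap1, Tapbp and Psmb8 in LysM-Cre and Tapbp and Psmb8 in the other genotype were called lower, beside 24.4% and 23.2% of all tested genes. Of these, B2m (0.07 became -0.32) and Tapbp (0.04 became -0.20) in LysM-Cre and Tapbp (0.07 became -0.24) in the FosKO-labelled libraries also changed sign. The share of higher genes among all calls then went from 53.8% to 37.6% in LysM-Cre and from 54% to 35.3% in the other genotype.

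By 2 h most of the pathway had risen in the deposited scaling. In LysM-Cre 9 of the 10 genes were called higher, against 30.6% of all tested genes, and in the FosKO-labelled libraries 10 of 10, against 32.6%. Of all tested genes 4200 were called lower in LysM-Cre and 4106 in the other genotype. Tap1 rose most, by 0.78 (0.58 to 0.99, 1.72-fold) in LysM-Cre and by 0.72 (0.52 to 0.92) in the FosKO-labelled libraries. Tap2 rose by 0.62 and 0.54, Psmb9 by 0.60 and 0.46, Psmb10 by 0.59 and 0.56, H2-K1 by 0.54 and 0.52, and Psmb8 by 0.40 and 0.37, in that order of genotypes. Tapbp rose by 0.54 and 0.43, H2-D1 by 0.35 and 0.42 and B2m by 0.21 and 0.24. Nlrc5 was the exception in LysM-Cre, at 0.03 (-0.19 to 0.24; limma, adjusted p 0.848), and rose by 0.40 (0.18 to 0.62) in the FosKO-labelled libraries.

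These rises at 2 h depended on the scaling. Under quantile normalisation, which gives each library the same distribution, 7 members in LysM-Cre and 4 in the FosKO-labelled libraries were called higher (Tap1, Tap2, Psmb9 and Psmb10 among both), beside 24.2% and 23.8% of all tested genes under that scaling, and the share of higher genes among all calls fell from 50.3% to 40% and from 52.5% to 39.2%. B2m then reversed to -0.28 in LysM-Cre and -0.34 in the FosKO-labelled libraries, and H2-D1 to -0.04 and -0.18. Of all tested genes 36.3% and 36.9% were called lower under that scaling. Tapbp reversed to -0.10 in the FosKO-labelled libraries alone. In the same libraries the calls of Nlrc5 (0.40 became 0.10, adjusted p 0.404), H2-K1 (0.52 became 0.07, 0.149) and Psmb8 (0.37 became 0.07, 0.30) were lost. Under TMM no call of a member at 2 h was lost.

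**Figure D5:**
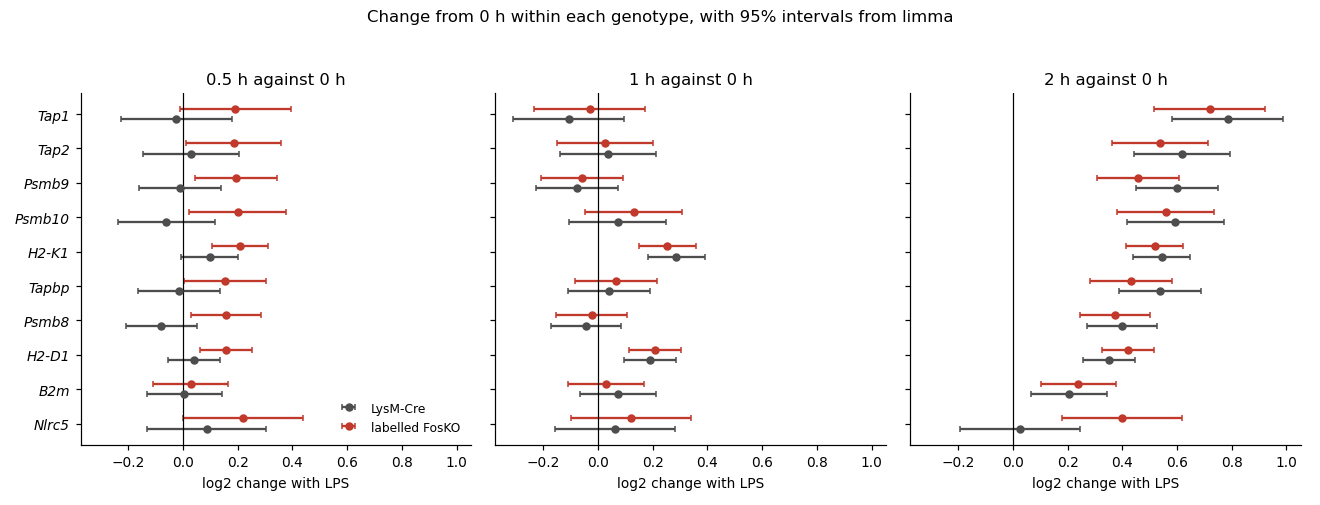
Change of each class I gene from 0 h after 0.5, 1 and 2 h of LPS within LysM-Cre (grey) and within FosKO-labelled libraries (red), as log2 estimates with 95% intervals from limma in the deposited scaling. The intervals are not adjusted for the number of genes. At 0.5 h all 10 include 0 in LysM-Cre and 7 of 10 lie above 0 in the FosKO-labelled libraries, where 2 were called after adjustment. None of the 10 was called for a difference in response between the genotypes at 0.5 h. At 1 h 2 of 10 lie above 0 in each genotype, and at 2 h all but that of Nlrc5 in LysM-Cre do.

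Whether the genotypes differ in their response to LPS was tested as the difference between the changes. None of the 10 genes was called by limma at 0.5, 1 or 2 h, where 0.115%, 1.22% and 15% of all tested genes were called in either direction. At an unadjusted p under 0.05 there were 2 genes at 0.5 h (Psmb8 and Psmb10), 0 at 1 h and 1 at 2 h, against 6.51%, 7.72% and 27.1% of all tested genes. Nlrc5 at 2 h had the largest estimate, 0.37 (0.06 to 0.68; adjusted p 0.103). It was called without replicate 3 of the 0 h FosKO-labelled libraries (0.48, adjusted p 0.0275) and with the replicate number as a block within genotype (0.37, adjusted p 0.0108). For the other 9 genes the estimates at 2 h ran from -0.14 (Psmb9, interval -0.36 to 0.07) to 0.07 (H2-D1, -0.06 to 0.20), and the intervals of these genes together spanned -0.36 to 0.23. Under quantile normalisation Tapbp was called lower at 2 h (-0.30; limma, adjusted p 0.0110), beside 8.65% of all tested genes called lower under that scaling. Under TMM the share of higher genes among all calls went from 48.5% to 37.6%.

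Untreated FosKO-labelled libraries and LysM-Cre libraries after 2 h of LPS are set side by side as a description, with no test. Tap1 averaged 12.08 in the former and 12.05 in the latter, Psmb9 10.17 and 10.19, Psmb10 10.95 and 10.90, and Psmb8 11.68 and 11.61. For 6 of the 10 genes (these, Tap2 and Tapbp) the libraries of the 2 groups overlapped. Of all tested genes 33.1% were higher in each untreated FosKO-labelled library and 33% lower in each (2 of the 10 members each way). B2m (15.89 to 16.19 and 15.70 to 15.78) and Nlrc5 (means 11.52 and 10.90) were higher in each untreated FosKO-labelled library, and H2-K1 (15.14 and 15.29) and H2-D1 (15.71 and 15.82) were lower in each.

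The other genes of the pathway were taken from lists, whose counts at 0 h stand beside 19.5% of all tested genes called higher and 15.9% called lower. Of the other genes of peptide loading and trimming, 11 were tested, and 7 were called higher and 0 lower in the FosKO-labelled libraries at 0 h, with a median of 0.10. Tapbpl, which edits peptides on class I molecules, was higher by 0.52, 0.80, 0.66 and 0.39 at the 4 times. Erap1, which trims peptides in the endoplasmic reticulum, was higher by 0.27, 0.31, 0.24 and 0.28. The other called genes of this list differed by less than Erap1 at 0 h, and under quantile normalisation 2 were called higher and 1 lower, where 16.4% of all tested genes were higher and 19.8% lower.

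Among 11 other subunits of the proteasome core 5 were called higher at 0 h, with a median of 0.08, and 3 higher and 1 lower under quantile normalisation, beside the same 16.4% and 19.8%. Of 9 activator and assembly genes 3 were called higher at 0 h. They included both subunits of the activator PA28, Psme1 (0.52, 0.66, 0.45 and 0.44 at 0, 0.5, 1 and 2 h) and Psme2 (0.47, 0.70, 0.47 and 0.35). After 2 h of LPS all 11 core subunits were called higher in both genotypes (30.6% of all tested genes in LysM-Cre and 32.6% in the other genotype), with medians of 0.27 in LysM-Cre and 0.25 in the FosKO-labelled libraries, against 6 and 5 under quantile normalisation (24.2% and 23.8% of all tested genes).

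Of 18 genes in the transcription control of class I genes 11 were called higher and 1 lower at 0 h, with a median of 0.13. Under quantile normalisation 7 were called higher and 2 lower, beside 16.4% and 19.8% of all tested genes. Those called higher in the deposited scaling included Irf7 (1.2), Stat2 (0.93), Irf1 (0.61) and Irf9 (0.24). Irf7, Stat2 and Irf9 were called higher at each of the 4 times, while Irf1, an activator of class I promoters, was not called at 1 h (0.22, adjusted p 0.0613) and lost its call at 0.5 h (0.33) without replicate 3 of the FosKO-labelled libraries (0.22, adjusted p 0.0506). At 1 h Irf1 was called with the groups alone (adjusted p 0.0143), with the replicate block (0.0196) and without LysM-Cre replicate 3 (0.27, 0.0483), and under quantile normalisation its call at 2 h was lost (0.09, 0.377). Irf1 rose by 2.69 in LysM-Cre and by 2.43 in the FosKO-labelled libraries after 2 h of LPS. Irf8, a factor of the myeloid lineage, rose by 1.09 and 2.31, and this difference in response passed the test (1.22). Between the genotypes at 0 h Irf8 (0.11, adjusted p 0.0451) lost its call under quantile normalisation (0.05, 0.354), without a filter (0.0763), without a variance trend (0.0645) and without each single library of that time (0.09 to 0.12).

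Of 13 other class I genes 12 were called higher and 1 lower at 0 h, with a median of 0.54. H2-T22 was higher by 0.74, H2-T23, which presents leader peptides, by 0.64, H2-Q4 by 0.50, H2-M3, which presents formylated peptides, by 0.32 and H2-M2 by 2.16. Fcgrt, the neonatal Fc receptor, was lower by 0.25 (log2 difference -0.25). At 2 h 8 were called higher and 0 lower, with a median of 0.27, beside 24.4% of all tested genes called higher. Under quantile normalisation, under TMM and with the high 18S libraries alone 7 were called higher at 2 h (18.7%, 21.5% and 24% of all tested genes). H2-Q4 (0.27 at 2 h) lost its call in each of these (0.13, adjusted p 0.270; 0.24, 0.0613; 0.27, 0.0501), without a filter (0.0712), without a variance trend (0.0564), and without any single library of that time except FosKO-labelled replicate 2 (0.20 to 0.30). Fcgrt at 2 h (-0.07) was called lower without LysM-Cre replicate 2 (-0.12, 0.0314). Reads of these related genes can be shared, so single values are uncertain. In the MHC class II pathway, which presents peptides taken up from outside the cell, 3 of 10 genes were called higher at 0 h, with a median of 0.10, beside 19.5% of all tested genes. H2-DMa was one of them (0.54). The class II chains H2-Aa (0.01) and H2-Ab1 (0.11), the invariant chain Cd74 (0.08) and the class II transactivator Ciita (-0.09) did not pass the test at 0 h, nor at the later times. Cd74 at 2 h (0.29) was called with the groups alone (adjusted p 0.00907), as was Ciita in the other direction (-0.32, 0.0130). With the replicate number as a block over both genotypes Cd74 was called at 0.5 h (0.0189) and 2 h (0.00496), H2-Ab1 at 0.5 h (0.31, adjusted p 0.0129) and Ciita at 2 h (0.0328). Ciita at 2 h was also called under TMM (-0.34, 0.0389), with the 18S set as a term (0.0421) and with the high 18S libraries alone (0.0460).

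Across the 24 libraries the members followed each other. The correlation (Pearson's r) of each gene with the mean of the other 9, each centred on its own mean, ran from 0.87 (Nlrc5) and 0.93 (H2-D1) to 0.995 (Psmb10 and Tapbp). The 5 other genes with the largest r to the mean of the 10 were Sp110 (0.995), Isg20 (0.995), Ifit3 (0.993), Psme1 (0.991) and Trafd1 (0.991). Spearman's rho of the same genes was 0.980, 0.990, 0.966, 0.957 and 0.985, and a ranking by rho kept 2 of them among its first 5. The libraries share 8 groups, and a gene that differs between the genotypes and rises at 2 h will follow the members, so these values describe the groups as much as the libraries. At 0 h Ifit3 was higher by 1.5, Isg20 by 1.34, Sp110 by 0.80 and Trafd1 by 0.66 in the FosKO-labelled libraries.

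Levels between genes were compared per kilobase of the annotated principal transcript. In untreated LysM-Cre libraries the order on the scale of log2 per kilobase was B2m (15.75), H2-D1 (14.40), H2-K1 (14.05), Tapbp (11.94), Psmb8 (10.51), Psmb10 (9.91), Tap1 (9.71), Psmb9 (9.15), Tap2 (8.46) and Nlrc5 (7.95). The libraries of neighbours in this order were apart except for Psmb10 and Tap1, whose libraries overlapped. In the untreated FosKO-labelled libraries the order of the 10 genes was the same, with Psmb10 at 10.56 and Tap1 at 10.52. The standard subunits stood at 11.58 (Psmb6), 10.54 (Psmb7) and 10.38 (Psmb5) in untreated LysM-Cre libraries, so that Psmb8 lay between Psmb7 and Psmb5 and below Psmb7 by less than the spread of its own libraries (SD 0.0566). With the union of all exons as the length, chosen after the data were seen, Psmb10 (9.53) lay above Psmb8 (9.45) and Psmb9 (7.72) below Nlrc5 (7.79). With that length Psmb8 lay above Psmb7 (8.98), and Psmb5 (10.38) above Psmb6 (10.35), so the order of the inducible and standard subunits depends on the length used.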

How the data were processed

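RNA was sequenced from 24 libraries of BMDMs in 8 groups of genotype and time of LPS. According to the methods of the study and the submitters' processing notes, stranded TruSeq libraries were sequenced single-end, aligned with STAR 2.5.2a and counted with RSEM 1.2.31 on GRCm38 (mm10). The submitters' processing notes name DESeq2 1.16.1, and the methods of the study name another version. The authors deposited 1 table of normalised log2 values, from -2.22 to 19.39, which resembles a regularised log; if it is one, differences of genes with few reads are understated. The stated genes are RefSeq genes, yet the table carries Ensembl identifiers, of which 99.6% were found in GENCODE M21 of the same build.

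Genes with a linear value (2 raised to the deposited log2 value) of 5 or more in 3 or more libraries were tested. All libraries entered 1 limma fit (limma 3.58.1, R 4.3.3) of 8 group means with a variance trend and 16 residual degrees of freedom, for 13 comparisons. P-values were adjusted by Benjamini-Hochberg over the 13901 tested genes, and called genes have an adjusted p under 0.05. Subunits were compared by exact permutation tests. Promoter windows came from RefSeq.

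The 10 members, the lists and the tests were chosen with earlier results of these data known. Named genes are the 10 members, genes of the lists, the 5 most alike and the checks Fos, Lyz2 and 18S. Alternatives were a pseudocount of 1, no filter, a filter at 20, quantile normalisation, trimmed means of log ratios (TMM, computed on linear values), the groups compared alone, replicate blocks, the 18S set, no trend, and leaving out each library. Numbers were taken to pair libraries where each of the 3 correlations of their deviations over genes was above 0.1. This held only between 0 and 0.5 h in the FosKO-labelled libraries (0.19, 0.13 and 0.27), and the blocked values stand beside that result; the other comparisons within a genotype gave 0.01 to 0.24.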

Additional observations from a re-analysis of the deposited data

How the results depend on the processing

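Over the 10 members and 13 comparisons, 2309 of 2350 alternative values stayed on their side of the threshold, with the same direction where called, 21 lost a call, 8 gained one and 12 changed sign with a call before or after; all of these 12 arose under quantile normalisation. Among the 2309 were 88 values that changed sign with no call in either fit. The counts of members called higher or lower between the genotypes stayed within 1.5 times under each alternative. The reversed values under quantile normalisation were -0.0103 for H2-K1 at 1 h in LysM-Cre; for H2-D1 -0.10 between the genotypes at 2 h, -0.11 at 1 h and -0.0422 at 2 h in LysM-Cre, and -0.0603 at 1 h and -0.18 at 2 h in the FosKO-labelled libraries; for B2m -0.32 at 1 h and -0.28 at 2 h in LysM-Cre and -0.34 at 2 h in the other genotype; and for Tapbp -0.20 at 1 h in LysM-Cre, and -0.24 at 1 h and -0.10 at 2 h in the FosKO-labelled libraries. Among other named genes Psmb6 reversed to -0.00386 at 2 h in the FosKO-labelled libraries and Psmb7 to -0.0159 between the genotypes at 2 h. The cause was not tested.

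Under the same scaling the members called higher fell from 2 to 0 in both genotypes at 1 h. There 14.7% (LysM-Cre) and 12.7% (FosKO-labelled) of all tested genes were called higher. In the FosKO-labelled libraries they fell from 10 to 4 at 2 h (23.8% of all tested genes) and from 2 to 1 at 0.5 h (3.89%). Those called lower went from 0 to 4 at 1 h and to 1 at 2 h in LysM-Cre, from 0 to 2 at 1 and 2 h in the FosKO-labelled libraries, and from 0 to 1 for the difference in response at 2 h. With the high 18S libraries alone, where 1 LysM-Cre library is left at 1 h, the change of H2-D1 at 1 h in LysM-Cre was 0.14 (0.19 with all libraries). In the FosKO-labelled libraries at 0.5 h the count of 2 members called higher became 1 without a filter and with the 18S set as a term. It also became 1 with the high 18S libraries alone and without a variance trend, and 0 with the groups compared alone. Leaving out single libraries gave 0 to 2. For the difference in response at 2 h, the replicate block within genotype gave 1, as did 1 of the fits without a library (range 0 to 1). Psmb10 minus Psmb7 at 1 h shifted by 0.80 with the high 18S libraries alone (0.68 with all), and Psmb9 minus Psmb6 at 2 h by 0.17 under quantile normalisation (0.14). A ranking by Spearman's rho shared 2 of the 5 most alike genes.

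The replicate block over both genotypes changed no call of a member, and the block within genotype changed those of Tap2 and Nlrc5 given above. By a correlation over 0.1 in each of the 3 pairs, the numbers paired the libraries only at 0.5 h in the FosKO-labelled libraries, where the block within genotype called 1179 genes in place of 823. Elsewhere this rule was not met, and the labels do not say whether the numbers pair libraries. The correlations at 1 h in the FosKO-labelled libraries were 0.24, 0.08 and 0.15. The block over both genotypes moved the count of called genes by 1.01 to 1.19 times. The block within genotype moved the differences in response from 16 to 25 genes (0.5 h), from 169 to 242 (1 h) and from 2081 to 2540 (2 h). The number of all genes called moved by over 1.5 times at 0.5 h in the FosKO-labelled libraries (823, 301 with the groups alone, 542 without replicate 3 at 0.5 h), with the high 18S libraries alone between the genotypes at 1 h (4708 to 2994) and at 1 h in LysM-Cre (4970 to 3009), and for differences in response at 0.5 h (16, range 6 to 26; 10 and 9 without LysM-Cre replicate 2 or 3 at 0.5 h) and 1 h (169 to 93 with the high 18S libraries and 112 with the groups alone). The depth of single libraries is not given in the sources used here, so no limit from depth is stated; the 3 libraries a group limit the precision.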
